A study of Mus musculus with 9 samples.

Results

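Axon guidance genes encode the cues that steer growing axons and the receptors that read them. Semaphorins act through plexins, and the secreted class 3 members mostly need a neuropilin as co-receptor. Ephrins bind Eph receptor tyrosine kinases on the neighbouring cell, Slits bind Robo receptors, and netrins bind Dcc and Unc5 receptors. In the developing visual system, Eph receptors and ephrins map retinal ganglion cell (RGC) axons onto their targets, netrin and Dcc guide them out of the eye, and Slits and Robos shape their crossing at the chiasm. Many of the same families also act outside neurons, in vessels and epithelia.

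The 71 genes described here are all those of 22322 in the expression table whose symbols belong to the semaphorin classes 3 to 7, plexin, neuropilin, Eph, ephrin, Slit, Robo, netrin, netrin-G, Unc5 or Dcc families. The rule used the symbols and no measured value. RNA was sequenced from mouse cells labelled as wild-type retinal ganglion cells, which were bought and kept in high-glucose medium with serum. There were 3 groups with 3 libraries each. Normal RGCs were grown in complete medium, aging RGCs received D-galactose, a sugar used to induce a senescence-like state, and aging RGCs + USCs medium were aging RGCs given medium conditioned by urine-derived stem cells (USCs), from which the USCs had been removed. The last group is called medium-treated below. The USCs grew in a medium of their own, so that the effect of conditioning and of the base medium cannot be told apart. Passage and time of harvest are not stated in these sources. Nothing in the labels says that the 3 libraries of a group came from separate cultures beyond replicate wells, so p-values measure the spread between these libraries, which may be technical.

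The libraries held 18189610 to 22342283 counts. Of the 13 markers of retinal ganglion cells that were examined, Pou4f2, Pou4f3 and Atoh7 were at 0 in all 9 libraries, and 3 (Rbpms, Isl1 and Nefl) averaged at least 1 FPKM. FPKM is a read level scaled by transcript length and depth, the scale used here to compare levels between genes. The label was thus not borne out by the defining markers of the cell type, and "RGCs" is used below as the name of the groups. The summed FPKM of 8 mesenchymal markers was 879 to 1029, most of it Vim, that of 7 epithelial markers was 636 to 711, nearly all of it Krt8, Krt18 and Krt19, and that of 8 photoreceptor markers was at most 0.62. Dcn, Lum, Col1a2, Cdh1, Krt7 and Cldn4 of these lists were near 0. Marker levels moved with the groups. The RGC list summed to 59.0 to 60.8 FPKM in normal wells, 41.6 to 45.4 in aging wells and 32.9 to 36.6 in medium-treated wells, without overlap, and its neurofilament gene Nefl changed by -1.15 on the log2 scale from aging to medium-treated RGCs. The other RGC markers tested, Rbpms (-0.047), Isl1 (0.13) and Pou4f1 (-1.05), did not pass from aging to medium-treated RGCs. Of the 5 mesenchymal markers tested, Col3a1 changed by -0.73 and Pdgfrb by -1.31 in the same comparison. Vim (-0.026), Pdgfra (0.22) and Col1a1 (-0.17) did not pass. The 10 macrophage markers summed to between 51.5 and 62.2 FPKM in normal wells, between 43.6 and 47.1 in aging wells and between 31.7 and 49.1 in medium-treated wells, and the macrophage gene C1qb had counts in all 3 normal wells and in medium-treated replicate 3 and was at 0 in the other 5. The 7 endothelial markers summed to 3.32 to 5.88, 2.45 to 3.33 and 0.66 to 1.67 FPKM. Their part in the results below was not tested. In such bulk samples, fewer cells of a type and less RNA per cell cannot be told apart.

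Secreted cues, membrane-bound ligands and receptors were all among the guidance genes detected. Of the 71 genes, 48 passed the low-count filter and were tested, 28 averaged at least 1 FPKM over the 9 libraries, and 10 at least 10 FPKM. Over all genes of the table, 47.8% averaged at least 1 FPKM. Plxnb2, a plexin that binds class 4 semaphorins, was the highest at 121 ± 7.87 FPKM (SD, n = 3) in normal RGCs, and ranked 615 of 22322 genes by mean FPKM. It supplied 73.0% of the summed plexin level. Epha2, a receptor for ephrin-A1 common in epithelia, stood at 34.2 ± 1.18 FPKM and supplied 97.8% of the EphA level. Unc5b, a netrin receptor known from vessels, stood at 23.2 ± 1.12 FPKM and supplied 94.6% of the netrin receptor level. Efna1 at 22.3 ± 1.05 and Plxna1 at 20.2 ± 1.48 FPKM came next. Unc5b differed from Efna1, and Efna1 from Plxna1, by less than the sum of their SDs. Ephb4 (16.6 ± 1.03), Plxnd1 (16.5 ± 0.205) and Sema4b (16.2 ± 0.396 FPKM) did not differ beyond their spread.

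**Figure D1:**
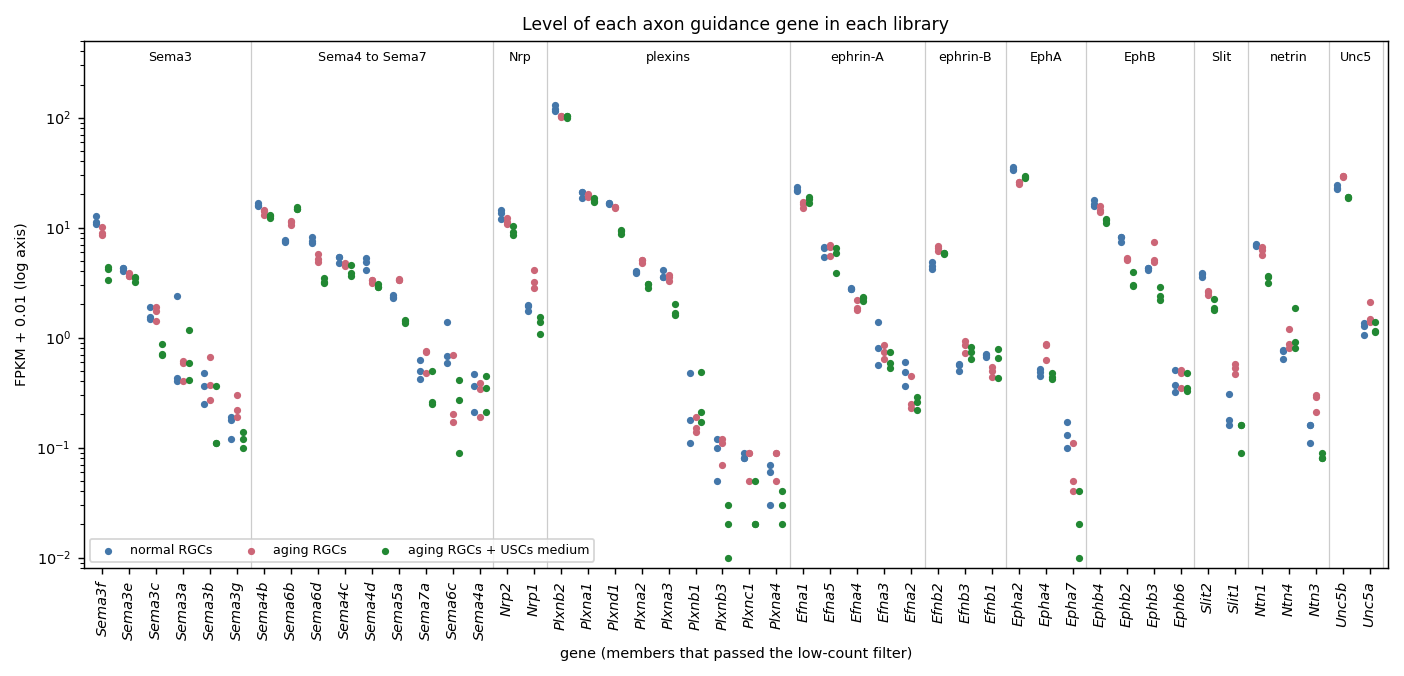
Level of each of the 48 tested axon guidance genes, grouped by family, with 1 point per library (FPKM + 0.01 on a log axis). Plxnb2 is highest, and most families hold 1 or 2 genes well above the rest.

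Dcc, Ephb1 and Robo2, all known for steering RGC axons, and the other Robos were at or near 0. Dcc, the attractive netrin receptor, had 1 count in all 9 libraries together. Ephb1, which directs uncrossed axons at the chiasm, had none, and neither had Epha6, Epha10, Robo4, Sema5b or Ntng1. A count of 0 in a library allows up to 3 counts, or 0.134 to 0.165 CPM (counts scaled to library size) at these depths, and covers counting error only. Robo2, a Slit receptor, had 5 to 14 counts, Robo1 0 to 4 and Robo3 0 to 6. The summed Robo level was at most 0.31 FPKM in any library, while the Slits summed to 3.74 to 4.21 FPKM in normal RGCs. Epha5 had 0 to 4 counts, Epha1 and Epha3 0 to 3, Epha8, Sema6a, Unc5c and Unc5d 0 to 2, Sema3d 0 to 4, Sema4f 1 to 7, Slit3 0 to 8, Ntn5 0 to 6 and Ntng2 0 to 7. Sema4g had the highest count among the 23 genes not tested, with 20 in 1 library. Epha1 and Ntn5 overlap more abundant genes on the other strand (Zyx and Sec1), and whether the counting used strand is not known here.

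Aging RGCs differed from normal RGCs in guidance genes of both directions. Slit1, a secreted Slit, was higher in aging RGCs by 2.39-fold, and Sema6c, a transmembrane semaphorin, was lower by 3.01-fold. Nrp1, Epha4, Efnb2, Sema5a and Sema6b rose by less, and Ephb2, Sema4d, Slit2 and Sema6d fell. At an edgeR adjusted p under 0.05 over all 12145 genes tested, 11 of the 48 genes were higher and 13 were lower, where 23.6% and 23% of all genes tested passed. With a log2 fold change of at least 1 in size as well, for which the term differentially expressed gene (DEG) is used below, 1 was higher and 1 lower, against 1.09% and 1.56% of all genes. These shares lie near those of the whole table. The median log2 fold change of the 48 was -0.061, and that of all genes was 0.0018. No class 3 semaphorin of the 6 tested passed in edgeR or DESeq2, and 1 had an unadjusted p under 0.05.

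Medium-treated RGCs had lower levels of guidance genes than aging RGCs in most families. The semaphorins Sema3b, Sema3c, Sema3f and Sema5a, the receptors Nrp1, Plxna4, Plxnb3, Plxnc1, Epha4, Epha7 and Ephb3, and the secreted cues Slit1 and Ntn3 were DEGs, all lower. Ntn1, Plxna2, Plxna3, Plxnd1 and Unc5b fell by less. Of the 48 genes, 28 were lower and 3 higher (Sema6b, Efna1 and Epha2), where 26% and 27.1% of all genes tested passed. As DEGs, 13 were lower and none higher, against 4.21% and 1.24% of all genes. By unadjusted p, too, no member was higher by a log2 fold change of 1, and DESeq2 called none. The median log2 fold change was -0.42, and that of all genes was -0.0067. Of the 13, 5 (Plxna4, Plxnb3, Plxnc1, Epha7 and Ntn3) had no medium-treated well over the floor of the low-count filter. They were tested only through groups in which they are higher, and their falls are given as a description of these wells. The other lower DEGs were 8. Of the 13, 6 had a mean under 1 CPM. Among the 39 members with a mean of at least 1 CPM, a limit set after the data were seen, 7 were DEGs and lower, against 2.91% of such genes, and 21 passed as lower, against 26.1%.

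Against normal RGCs, the medium-treated wells stood lower in 28 of the 48 genes and higher in 4 (Sema6b, Efnb2, Plxnb1 and Ntn4), where 29.9% and 30.6% of all genes passed. As DEGs, 9 were lower (Sema3b, Sema3c, Sema3f, Sema6c, Sema6d, Plxnb3, Plxnc1, Epha7 and Ephb2) and 1, Sema6b, was higher, against 5.24% and 1.47% of all genes. Plxnb3, Plxnc1 and Epha7 again had no medium-treated well over the filter's floor, and the other lower DEGs were 6. The median log2 fold change was -0.43, and that of all genes was -0.013. The 3 comparisons share libraries in pairs, so that their values are set side by side and are not independent of one another.

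**Figure D2:**
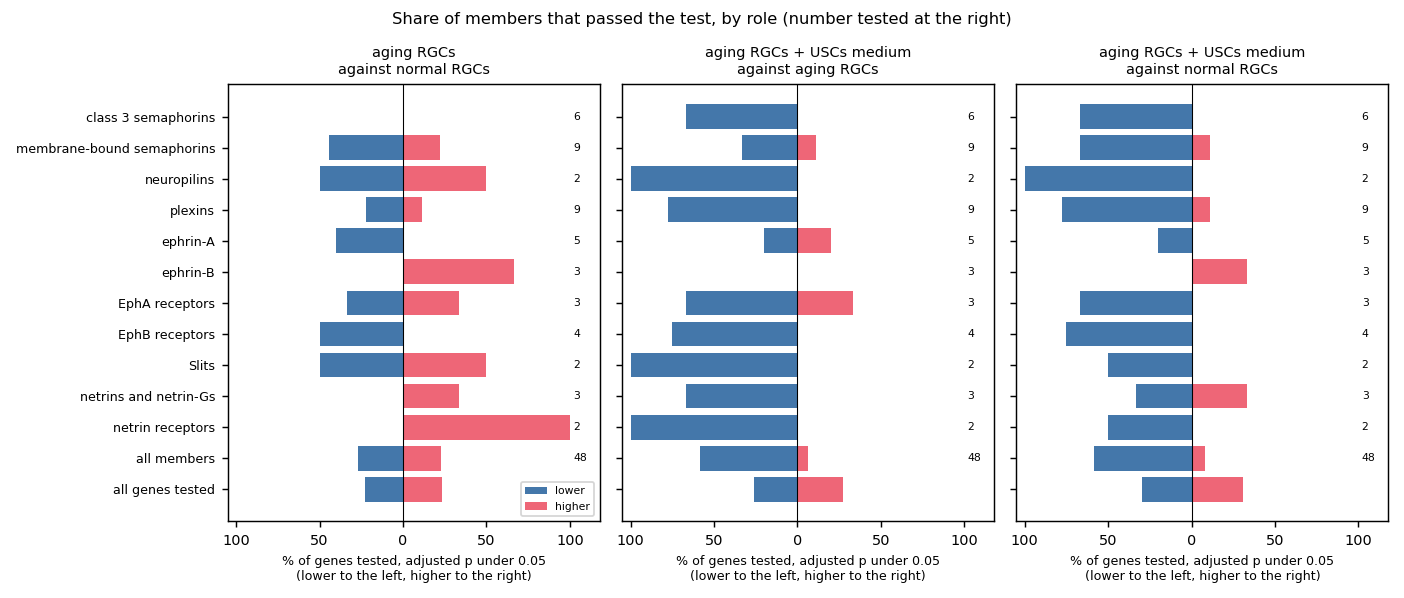
Share of the tested genes of each family, of all 48 members and of all 12145 genes tested that passed an edgeR adjusted p under 0.05, as higher (right) or lower (left), for each of the 3 comparisons. Between medium-treated and aging RGCs, 28 members are lower and 3 higher.

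Among the class 3 semaphorins, secreted ligands that mostly repel axons, 4 of the 6 tested were lower in medium-treated than in aging RGCs. Over all genes tested, 26% passed as lower there. The summed class 3 level was 19.0 ± 0.837 FPKM in normal, 15.8 ± 1.33 in aging and 9.13 ± 0.76 in medium-treated wells (SD, n = 3). Sema3f, a ligand of neuropilin-2, made up 56.4% of that sum. The lower sum in aging wells depends on the scale, and none of the 6 genes passed between aging and normal RGCs. There the log2 ratio of group means was 0.32 in CPM and -1.01 in FPKM for Sema3a, and -0.11 and -0.33 for Sema3f. Sema3f (chromosome 9, 107681500 to 107710475 on GRCm38) was measured at 27.0, 22.6 and 24.7 CPM in normal, 24.3, 21.3 and 23.1 in aging and 9.14, 8.73 and 8.66 in medium-treated wells. The medium-treated wells lay below all others, and the normal and aging wells overlapped. The difference from aging RGCs was 2.59-fold (log2 fold change -1.37, SE 0.0909, edgeR adjusted p = 5.04e-13), and that between aging and normal RGCs was -0.11 (95% interval -0.28 to 0.047, edgeR adjusted p = 0.244), which did not pass. Against normal RGCs, the medium-treated wells stood at -1.49 (SE 0.0893, edgeR adjusted p = 3.30e-14). On log2(FPKM + 0.1) in limma, the difference between aging and normal RGCs passed (adjusted p = 0.0397).

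Sema3c, which signals through neuropilins and plexin-D1, had 8.14, 9.98 and 7.85 CPM in normal, 10.3, 7.73 and 9.47 in aging and 4.01, 3.92 and 4.92 in medium-treated wells. Again the medium-treated wells lay below the rest, and the other groups overlapped. The log2 fold change was -1.10 (SE 0.148, edgeR adjusted p = 4.48e-07) against aging RGCs and -1.01 (SE 0.148, edgeR adjusted p = 9.81e-07) against normal RGCs. Sema3b had 30, 14 and 17 counts in normal, 23, 14 and 15 in aging and 11, 6 and 6 in medium-treated wells. Its medium-treated wells lay below the others, and its log2 fold change against aging RGCs was -1.20 (SE 0.451, edgeR adjusted p = 0.0262). That call was lost without aging replicate 1 (adjusted p = 0.148, and so for the values given in brackets after a left-out library or another tool below) and without medium-treated replicate 2 (0.0993) or 3 (0.0907). Against normal RGCs it was -1.27 (SE 0.441, edgeR adjusted p = 0.0144), lost without normal replicate 1 (0.114) and medium-treated replicate 2 (0.0652) or 3 (0.0592). Sema3g fell by 0.95 against aging RGCs (edgeR adjusted p = 0.0442), a call that DESeq2 did not make (adjusted p = 0.0821) and that was lost without any 1 of 7 libraries. Sema3e, which binds plexin-D1 directly, stood at -0.043 (95% interval -0.19 to 0.10) and Sema3a at -0.090 (-0.58 to 0.40), and neither passed.

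The membrane-bound semaphorins moved in different directions. Sema6b, a transmembrane ligand of plexin-A receptors (chromosome 17, 56123085 to 56140343), had 23.8, 23.3 and 24.4 CPM in normal, 36.1, 36.0 and 33.1 in aging and 49.2, 51.7 and 48.7 in medium-treated wells. The 3 groups did not overlap and rose in that order. Its log2 fold change was 0.56 (SE 0.0625, edgeR adjusted p = 2.50e-08) for aging against normal RGCs, 0.51 (SE 0.0582, edgeR adjusted p = 2.54e-08) for medium-treated against aging RGCs, and 1.07 (SE 0.0602, edgeR adjusted p = 9.30e-15) for medium-treated against normal RGCs. In FPKM it went from 7.57 ± 0.169 to 11.0 ± 0.541 and 14.9 ± 0.453 (SD, n = 3). Sema6d and Sema6c, of the same class, fell in aging RGCs. Sema6d had 42.5, 43.5 and 41.2 CPM in normal, 28.4, 29.6 and 30.6 in aging and 20.3, 17.7 and 19.3 in medium-treated wells, again without overlap, with -0.52 (SE 0.0632, edgeR adjusted p = 1.04e-07) in aging RGCs, -0.63 (SE 0.0697, edgeR adjusted p = 1.33e-08) from aging to medium-treated RGCs, and -1.15 (SE 0.0666, edgeR adjusted p = 1.55e-14) from normal to medium-treated RGCs. Sema6c had 48, 40 and 40 counts in normal, 11, 15 and 12 in aging and 11, 5 and 12 in medium-treated wells. Its normal wells lay above all others (log2 fold change -1.59, SE 0.334, edgeR adjusted p = 0.000259 for aging against normal RGCs), and aging and medium-treated wells overlapped (-0.47, 95% interval -1.33 to 0.39). The medium-treated wells were -2.06 (SE 0.352, edgeR adjusted p = 1.13e-05) from normal RGCs. In limma on log2(FPKM + 0.1) the fall in aging RGCs was not called (adjusted p = 0.0646).

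Sema5a, a thrombospondin-repeat semaphorin known to inhibit RGC axon growth (chromosome 15, 32244810 to 32696341), rose in aging RGCs and was lowest with the medium. It had 25.6, 24.7 and 24.0 CPM in normal, 36.4, 35.9 and 35.5 in aging and 15.4, 16.3 and 15.9 in medium-treated wells, and no group overlapped another. The log2 fold change was 0.54 (SE 0.0642, edgeR adjusted p = 7.69e-08) in aging RGCs and -1.18 (SE 0.0686, edgeR adjusted p = 2.86e-14) with the medium, which left it -0.64 from normal RGCs (edgeR adjusted p = 6.75e-09). Sema4b, the highest semaphorin, changed by -0.20 (SE 0.0519, edgeR adjusted p = 0.00208) in aging RGCs, and Sema4d, a ligand of plexin-B1, by -0.54 (SE 0.0895, edgeR adjusted p = 1.52e-05). Neither passed between aging and medium-treated RGCs (-0.070, interval -0.18 to 0.039, and -0.078, interval -0.27 to 0.12), though Sema4b did without TMM factors (0.0202). Sema7a, a lipid-anchored ligand of plexin-C1, fell with the medium by 0.89 (edgeR adjusted p = 0.0177), a call lost without aging replicate 1 or 2 or medium-treated replicate 1 or 3 (adjusted p of 0.0712 to 0.0945). Sema4c passed against normal RGCs alone (-0.32), a call lost without medium-treated replicate 3 (0.0809), and Sema4a in none of the comparisons.

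The neuropilins, co-receptors of the class 3 semaphorins, were both lower in medium-treated than in aging RGCs. Nrp1, which also binds VEGF (chromosome 8, 128358604 to 128503363), had 6.80, 6.06 and 6.81 CPM in normal, 14.4, 9.99 and 11.2 in aging and 5.80, 4.02 and 5.17 in medium-treated wells. All aging wells lay above all others. Nrp1 rose by 1.81-fold in aging RGCs (log2 fold change 0.85, SE 0.140, edgeR adjusted p = 1.20e-05) and fell by 2.37-fold with the medium (log2 fold change -1.25, SE 0.147, edgeR adjusted p = 4.38e-08). Its distance from normal RGCs after the medium was -0.39 (edgeR adjusted p = 0.0308), and that call was lost without normal replicate 1 (0.0772), normal replicate 3 (0.0733) or medium-treated replicate 2 (0.19). Nrp2, the more abundant neuropilin at 13.4 ± 1.21 FPKM in normal RGCs, changed by -0.20 (SE 0.0619, edgeR adjusted p = 0.00968) and -0.22 (SE 0.0640, edgeR adjusted p = 0.00498) in the same comparisons. The first of these was lost without normal replicate 3 (0.0868) or aging replicate 1 (0.0647), and the second without aging replicate 3 (0.0619) or medium-treated replicate 2 (0.0575).

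**Figure D3:**
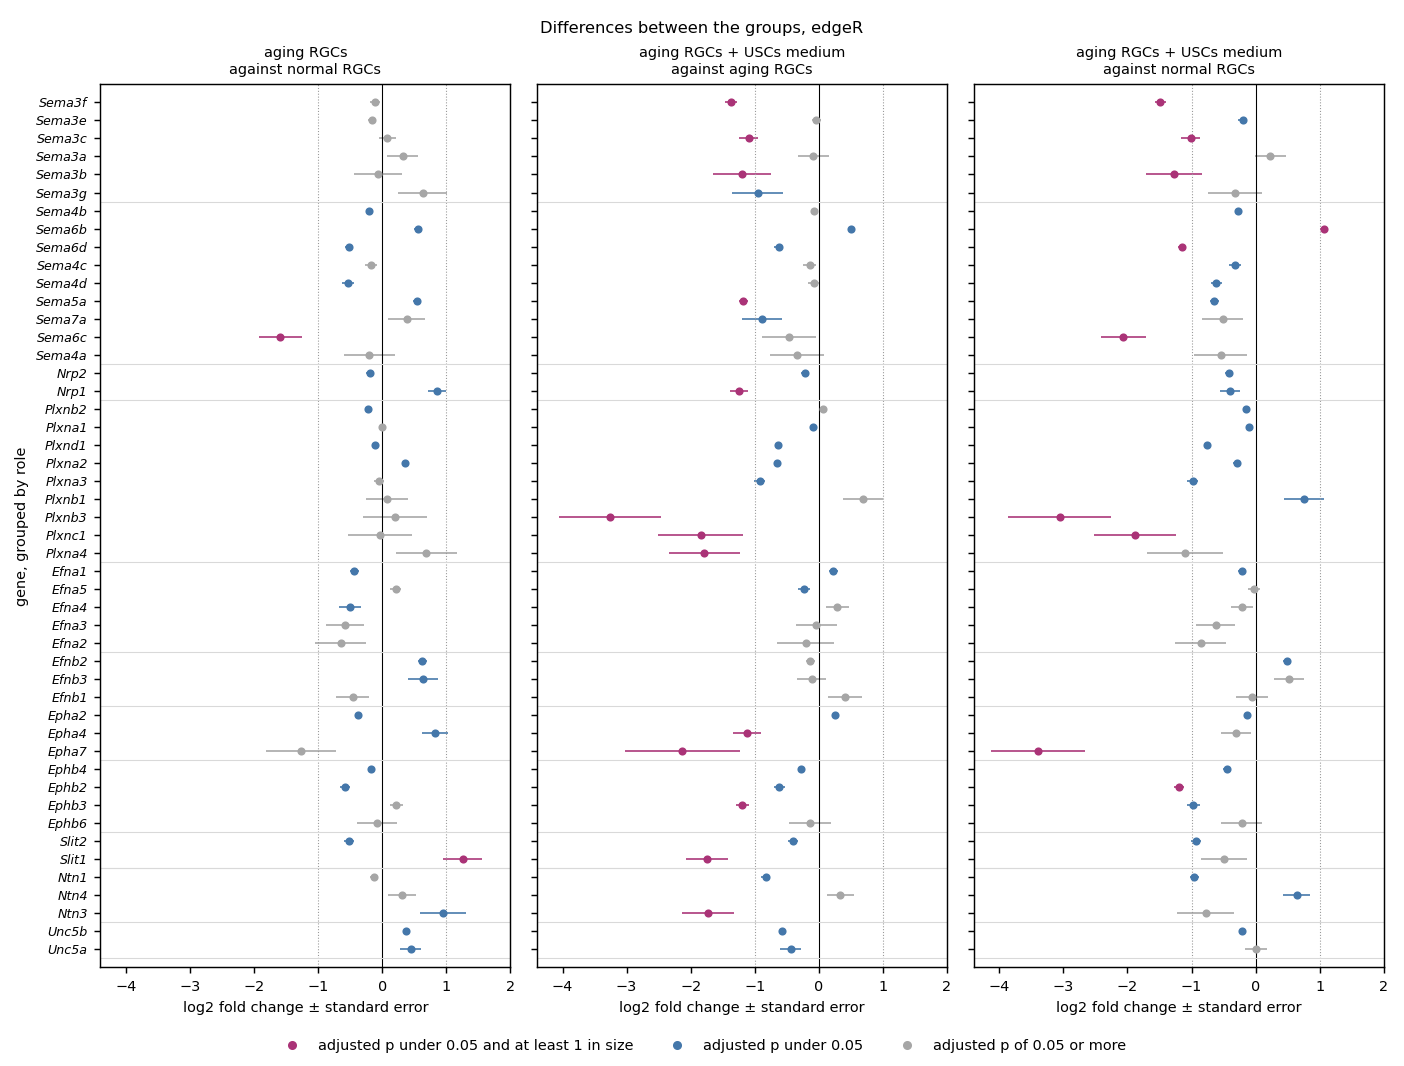
Log2 fold change with its standard error for the 48 tested genes in each of the 3 comparisons, from edgeR, coloured by whether the gene passed an adjusted p under 0.05 and a log2 fold change of 1 in size. In the middle panel, medium-treated against aging RGCs, 28 genes that passed lie left of 0 and 3 lie right of it.

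Plexins, the semaphorin receptors, passed as lower in 7 of 9 genes between aging and medium-treated RGCs, where 26% of all genes tested did. Of the 7, Plxna4, Plxnb3 and Plxnc1 had no medium-treated well over the filter's floor. The most abundant plexin did not pass. Plxnb2 had 813, 719 and 766 CPM in normal, 646, 668 and 665 in aging and 702, 672 and 689.9 in medium-treated wells, which is -0.22 (SE 0.0352, edgeR adjusted p = 1.13e-05) in aging RGCs and 0.060 (95% interval -0.012 to 0.13) with the medium. The summed plexin level was 166 ± 8.58 FPKM in normal, 147 ± 1.97 in aging and 134 ± 2.19 in medium-treated wells. The size of these steps depends on the scale. From aging to medium-treated RGCs, the log2 ratio of group means of Plxnb2 was 0.060 in CPM and -0.018 in FPKM. Plxnd1, the receptor of Sema3e in vessels, had 111, 109 and 112 CPM in normal, 98.0, 104 and 106 in aging and 67.7, 63.4 and 65.9 in medium-treated wells. Its medium-treated wells lay far below the others (log2 fold change -0.64, SE 0.0442, edgeR adjusted p = 1.02e-12), and the log2 fold change of aging against normal RGCs was -0.11 (edgeR adjusted p = 0.0334), a call lost without normal replicate 1 (0.0577) or 3 (0.0809) or aging replicate 1 (0.169).

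Plexin-A receptors transmit class 3 and class 6 semaphorin signals. Plxna3 had 27.4, 23.9 and 24.0 CPM in normal, 22.5, 25.5 and 24.5 in aging and 12.1, 11.7 and 14.4 in medium-treated wells, with the medium-treated wells below the rest (log2 fold change -0.93, SE 0.0892, edgeR adjusted p = 9.97e-10). Plxna2 had 42.9, 42.0 and 41.3 CPM in normal, 54.9, 55.3 and 52.0 in aging and 35.5, 32.4 and 35.2 in medium-treated wells, and no group overlapped another. It rose by 0.36 in aging RGCs (edgeR adjusted p = 3.77e-06) and fell by 0.65 with the medium (edgeR adjusted p = 1.18e-10). Plxna1 passed as lower with the medium by 0.10 (edgeR adjusted p = 0.0465). That call was not made by DESeq2 (0.0767) and was lost without normal replicate 3, any aging replicate or medium-treated replicate 2 or 3 (adjusted p of 0.0523 to 0.197). Part of its exons overlaps an antisense transcript that is not in the table. Plxnb1, the receptor of Sema4d, passed as higher in medium-treated than in normal RGCs (0.76, edgeR adjusted p = 0.0356), but not in DESeq2 (0.0524), nor without normal replicate 1 (0.0668) or 3 (0.161) or medium-treated replicate 3 (0.323, log2 fold change 0.41). Without TMM factors it did not pass either (0.0673), and in limma on log2(FPKM + 0.1) the difference was 0.19 (0.718).

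The other 3 plexins were DEGs at low counts, and no medium-treated well of theirs reached the filter's floor. Plxnb3 had 12, 5 and 13 counts in normal, 11, 7 and 13 in aging and 1, 2 and 0 in medium-treated wells, the latter below all others. Summed over wells and scaled to library size, the medium-treated count over the aging count was 0.0943 (exact 95% interval 0.0185 to 0.302, counting error only, edgeR adjusted p = 0.00103), and over the normal count it was 0.108 (exact 95% interval 0.0211 to 0.348, counting error only, edgeR adjusted p = 0.0017). Plxnc1, the receptor of Sema7a, also expressed by myeloid cells, had 12, 11 and 10 counts in normal, 11, 6 and 12 in aging and 1, 1 and 6 in medium-treated wells. It stood at -1.85 (SE 0.657, edgeR adjusted p = 0.0193) with the medium, and that call was lost without aging replicate 1 (0.0616) or 3 (0.071) or medium-treated replicate 1 (0.0904) or 2 (0.094). Its highest medium-treated well was replicate 3, and without that well the log2 fold change was -3.16 (edgeR adjusted p = 0.00409). That well also held C1qb counts, while the aging wells held none. Other macrophage markers were counted in every aging well, among them Cd68, Cd14, Ptprc, Csf1r, Lyz2 and Itgam. Between aging and normal RGCs, Cd68 (0.10), Cd14 (0.0082) and Ptprc (-0.44) did not pass. Csf1r (-1.61), Lyz2 (-2.30), Itgam (-2.72), Adgre1 (-4.99) and C1qb (-6.83) passed as lower in aging RGCs. The Plxnc1 counts of the aging wells overlapped those of the normal wells. The part of myeloid cells was not tested. Against normal RGCs, Plxnc1 stood at -1.88 (SE 0.644, edgeR adjusted p = 0.0132), lost without medium-treated replicate 1 (0.0699) or 2 (0.0722). Plxna4 had 13, 4 and 16 counts in normal, 19, 10 and 19 in aging and 4, 8 and 2 in medium-treated wells and was -1.79 (SE 0.557, edgeR adjusted p = 0.00804) from aging to medium-treated RGCs, lost without medium-treated replicate 3 (0.0508). Plxna4 had 2 normal and 3 aging wells over the floor, and Plxnc1 had 3 normal and 2 aging ones. The filter needs 3 libraries. Plxna4 would not have passed it on the normal wells alone, nor Plxnc1 on the aging wells alone. In limma on log2(FPKM + 0.1), the calls against aging RGCs were lost for Plxna4 (-0.47, 0.181) and Plxnc1 (-0.47, 0.163), and those against normal RGCs for Plxnc1 (0.104) and Plxnb3 (-0.69, 0.0525).

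Eph receptors passed as lower with the medium in 5 of the 7 tested, and Epha2 passed as higher. Of all genes tested, 26% and 27.1% passed in these directions. Epha7, among the 5, had no medium-treated well over the filter's floor. Epha2 had 129, 135 and 126 CPM in normal, 96.8, 101 and 101 in aging and 115, 121 and 117 in medium-treated wells. Its 3 groups did not overlap, falling in aging RGCs (log2 fold change -0.39, SE 0.0403, edgeR adjusted p = 7.29e-09) and standing higher again with the medium (log2 fold change 0.24, SE 0.0408, edgeR adjusted p = 1.17e-05). Epha4, which binds ephrins of both classes, had 2.86, 3.15 and 2.12 CPM in normal, 3.84, 5.31 and 5.27 in aging and 2.67, 1.59 and 2.36 in medium-treated wells. The aging wells lay above all others, with 0.82 (SE 0.208, edgeR adjusted p = 0.00174) for aging against normal RGCs and -1.13 (SE 0.217, edgeR adjusted p = 7.64e-05) for medium-treated against aging RGCs. Epha7 had 16, 11 and 11 counts in normal, 5, 5 and 4 in aging and 2, 1 and 0 in medium-treated wells. It passed the filter through the normal wells alone, and the medium-treated count over the normal count, scaled to library size, was 0.0854 (exact 95% interval 0.0169 to 0.269, counting error only, edgeR adjusted p = 0.000251). Against aging RGCs that ratio was 0.209 (exact 95% interval 0.0385 to 0.748, counting error only, edgeR adjusted p = 0.046). The latter call was not made by DESeq2 (0.067) and was lost without any of the 9 libraries but medium-treated replicate 1 (adjusted p of 0.054 to 0.155).

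EphB receptors, which bind ephrin-B ligands, summed to 29.1 ± 1.41 FPKM in normal, 26.0 ± 1.55 in aging and 17.7 ± 0.709 in medium-treated wells. Ephb2 had 36.2, 34.4 and 37.5 CPM in normal, 24.3, 23.0 and 24.9 in aging and 14.4, 14.5 and 18.1 in medium-treated wells. It fell in both steps without overlap, with log2 fold changes of -0.58 (SE 0.0753, edgeR adjusted p = 2.98e-07) in aging RGCs and -0.62 (SE 0.0837, edgeR adjusted p = 4.38e-07) with the medium, and stood at -1.20 (SE 0.0795, edgeR adjusted p = 2.67e-13) from normal RGCs. Ephb3 had 17.2, 14.5 and 16.3 CPM in normal, 20.2, 16.4 and 19.5 in aging and 8.94, 7.59 and 7.99 in medium-treated wells. Its medium-treated wells lay below all others (log2 fold change -1.19, SE 0.104, edgeR adjusted p = 1.49e-10), and aging against normal RGCs stood at 0.22 (edgeR adjusted p = 0.0552), which passed without normal replicate 1 (0.036) or aging replicate 2 (0.0151). Ephb4, known from venous endothelium and the most abundant EphB receptor, changed by -0.17 (SE 0.0534, edgeR adjusted p = 0.0102) in aging RGCs and -0.28 (SE 0.0554, edgeR adjusted p = 0.000112) with the medium. The first was lost without normal replicate 1 (0.0722) or aging replicate 1 (0.0666). The endothelial marker Cdh5 was counted 218 to 248 times per normal well, 131 to 146 times per aging well and 26 to 30 times per medium-treated well. Other endothelial markers moved differently. Vwf stood at 1.84 (edgeR adjusted p = 0.000991) for aging against normal RGCs and at -2.23 (edgeR adjusted p = 0.000215) with the medium. Tie1 (0.48) and Pecam1 (-0.59) did not pass in aging RGCs. With the medium, Tie1 passed (-1.27) and Pecam1 did not (-0.50). The part of endothelial cells in the Ephb4 levels was not tested. Ephb6, a receptor without kinase activity, passed in no comparison.

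Ephrins, the ligands of these receptors, changed less. Efna1, the main ephrin-A and a ligand of Epha2, had 31.2, 31.1 and 34.0 CPM in normal, 24.0, 25.0 and 22.2 in aging and 29.3, 27.9 and 25.9 in medium-treated wells. It fell in aging RGCs (log2 fold change -0.43, SE 0.0703, edgeR adjusted p = 9.87e-06) and was higher with the medium than in aging RGCs (log2 fold change 0.22, SE 0.0720, edgeR adjusted p = 0.0106), a call lost without aging replicate 3 (0.0699) or medium-treated replicate 1 (0.0636) and without TMM factors (0.0902). Efna4 fell in aging RGCs by 0.50 (edgeR adjusted p = 0.0187), lost without aging replicate 2 (0.0684) or 3 (0.0618), and an antisense transcript overlaps it. Efna5, which helps to map RGC axons, was lower with the medium by 0.24 (edgeR adjusted p = 0.0272), but not in DESeq2 (0.0526) or without aging replicate 2 (0.0603) or 3 (0.104) or medium-treated replicate 2 (0.212). Efna2 and Efna3 passed in no comparison. Efnb2, the arterial ephrin-B and a ligand of Ephb4, had 20.5, 19.7 and 19.4 CPM in normal, 28.7, 32.1 and 31.1 in aging and 27.9, 27.5 and 28.4 in medium-treated wells. Its normal wells lay below all others (log2 fold change 0.62, SE 0.0686, edgeR adjusted p = 1.82e-08), and the medium-treated wells were -0.13 (95% interval -0.27 to 0.0037) from the aging ones. No ephrin-B gene passed between these groups in edgeR or DESeq2, and none had an unadjusted p under 0.05. Efnb2 passed as lower there without TMM factors (0.00904), with upper-quartile factors (0.0422) and without aging replicate 1 (0.0468). Efnb3 rose in aging RGCs by 0.64 (edgeR adjusted p = 0.0263), a call lost without any normal replicate or aging replicate 2 or 3 (adjusted p of 0.0509 to 0.113), and Efnb1 passed in none.

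Slits, secreted repellents, moved apart in aging RGCs. Slit1 had 0.780, 0.921 and 1.18 CPM in normal, 2.49, 2.01 and 2.38 in aging and 0.719, 0.447 and 0.871 in medium-treated wells. The aging wells lay above all others, and normal and medium-treated wells overlapped. Slit1 rose in aging RGCs (log2 fold change 1.25, SE 0.302, edgeR adjusted p = 0.00109) and fell with the medium (log2 fold change -1.75, SE 0.323, edgeR adjusted p = 4.49e-05). Slit2, which supplied 89.9% of the summed Slit level, had 26.1, 29.3 and 28.4 CPM in normal, 19.6, 20.3 and 18.2 in aging and 13.5, 14.8 and 15.6 in medium-treated wells. It fell in each step, with log2 fold changes of -0.53 (SE 0.0768, edgeR adjusted p = 2.15e-06) in aging RGCs and -0.41 (SE 0.0836, edgeR adjusted p = 0.000169) with the medium, and the groups did not overlap.

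Netrins and their Unc5 receptors passed as lower with the medium in 4 of the 5 genes tested, where 26% of all genes tested did. Ntn3, among the 4, had no medium-treated well over the filter's floor. Ntn1, which guides RGC axons into the optic nerve, had 37.7, 36.2 and 37.0 CPM in normal, 33.9, 32.0 and 35.8 in aging and 19.8, 18.4 and 18.9 in medium-treated wells. The medium-treated wells lay below all others (log2 fold change -0.83, SE 0.0679, edgeR adjusted p = 3.76e-11), and aging against normal RGCs stood at -0.12 (95% interval -0.25 to 0.0031). Ntn3 had 11, 15 and 15 counts in normal, 18, 28 and 26 in aging and 7, 8 and 7 in medium-treated wells, with the aging wells highest. It had 2 normal and 3 aging wells over the floor of the low-count filter, and would not have passed on the normal wells alone. Its log2 fold change was 0.95 (SE 0.361, edgeR adjusted p = 0.0321) in aging RGCs and -1.73 (SE 0.404, edgeR adjusted p = 0.000674) with the medium. The first call was not made by DESeq2 (0.0725) and was lost without any normal replicate or aging replicate 2 or 3 (adjusted p of 0.0516 to 0.141). Ntn3 shares 89 exonic bases on the same strand with Tbc1d24, which averaged 610 counts to its 15 and changed by -0.66 with the medium, so that the split of reads between the genes is uncertain. Ntn4, which binds laminins, was higher in medium-treated than in normal RGCs (log2 fold change 0.64, SE 0.209, edgeR adjusted p = 0.00955), a call lost without medium-treated replicate 1 (0.128).

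Unc5b, a dependence receptor of netrin-1, had 133, 125 and 127 CPM in normal, 164, 169 and 165 in aging and 111, 112 and 109 in medium-treated wells. The groups did not overlap. It rose in aging RGCs (log2 fold change 0.37, SE 0.0372, edgeR adjusted p = 3.48e-09) and fell with the medium (log2 fold change -0.58, SE 0.0379, edgeR adjusted p = 3.23e-13) to -0.21 from normal RGCs (edgeR adjusted p = 2.20e-05). Unc5a had 4.98, 3.88 and 4.79 CPM in normal, 7.84, 5.56 and 5.22 in aging and 4.57, 4.47 and 4.66 in medium-treated wells. It stood at 0.44 (SE 0.165, edgeR adjusted p = 0.0288) and -0.44 (SE 0.166, edgeR adjusted p = 0.0278) in the same comparisons. The first was lost without normal replicate 2 (0.124) or aging replicate 1 (0.285), and the second without aging replicate 1 (0.273) or any medium-treated replicate (0.0514 to 0.0714).

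**Figure D4:**
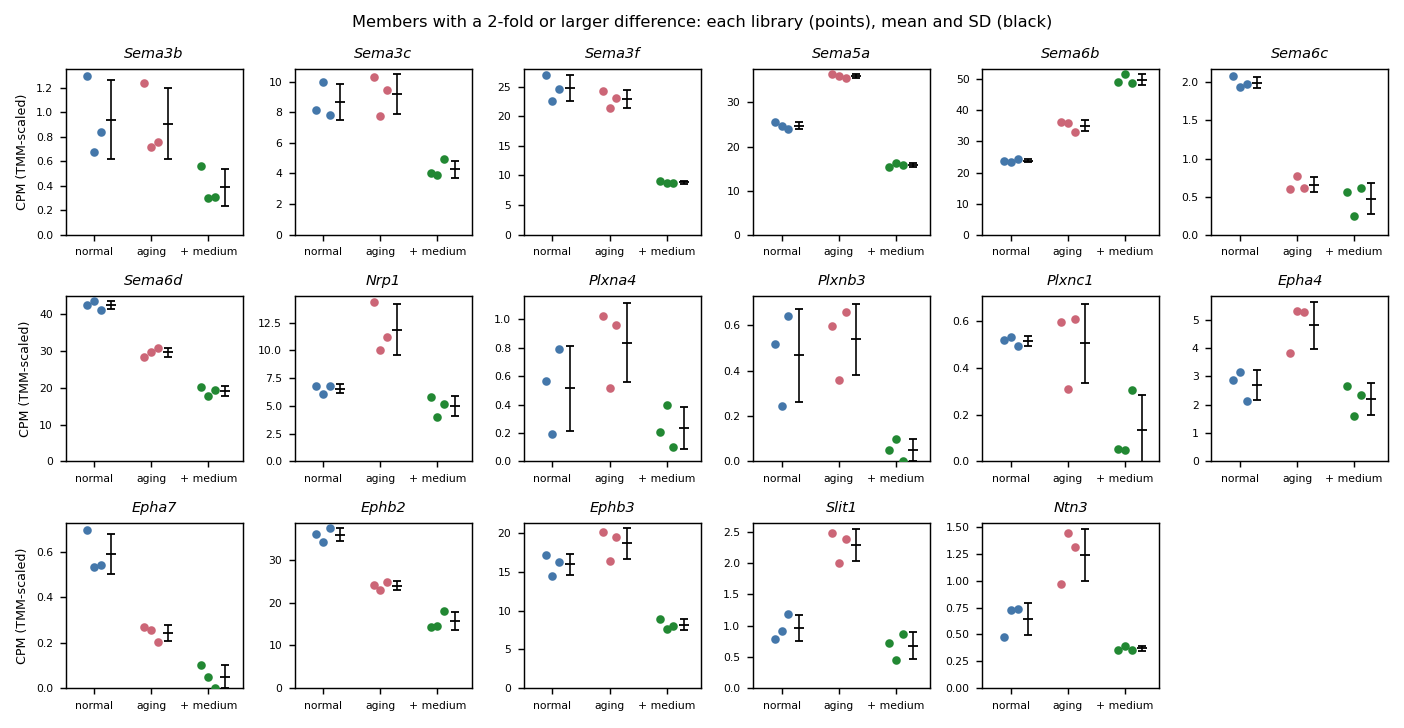
TMM-scaled CPM in each library (points) with the mean and SD of each group (black) for the 17 guidance genes that were DEGs in at least 1 comparison, each with an axis from 0. Slit1, Nrp1, Epha4 and Sema5a are highest in the aging wells, Sema6b is highest in the medium-treated wells, and Sema3f and Ephb3 are lowest there.

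Promoter windows of RefSeq (GRCm38.p6, 250 bases before to 50 after a gene's start) were found for 61 of the 71 genes and for 13 of the 17 DEGs. Those of 3 genes with different patterns are shown 5′ to 3′ on the gene's strand: Sema6b, which rose in both steps, and Sema5a and Nrp1, which rose in aging RGCs and fell with the medium. The windows are chr17:56140294-56140593 on the minus strand, chr15:32244563-32244862 on the plus strand and chr8:128358823-128359122 on the plus strand. The Nrp1 window surrounds a RefSeq start that lies downstream of the first base of the GENCODE gene. Capitals mark the SP1 motif GGGCGG on either strand, and overlapping matches run together.
Sema6b: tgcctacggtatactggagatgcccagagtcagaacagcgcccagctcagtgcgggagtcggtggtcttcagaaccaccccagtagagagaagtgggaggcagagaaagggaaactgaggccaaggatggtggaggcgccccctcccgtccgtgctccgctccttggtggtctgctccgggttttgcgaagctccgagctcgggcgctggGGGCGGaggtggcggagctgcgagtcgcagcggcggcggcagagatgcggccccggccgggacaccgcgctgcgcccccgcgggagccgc
Sema5a: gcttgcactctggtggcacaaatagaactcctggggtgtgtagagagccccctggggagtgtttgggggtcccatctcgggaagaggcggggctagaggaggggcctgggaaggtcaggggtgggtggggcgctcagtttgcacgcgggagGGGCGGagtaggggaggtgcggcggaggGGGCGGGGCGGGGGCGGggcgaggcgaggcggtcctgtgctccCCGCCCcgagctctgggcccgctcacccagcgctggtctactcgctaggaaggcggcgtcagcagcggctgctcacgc
Nrp1: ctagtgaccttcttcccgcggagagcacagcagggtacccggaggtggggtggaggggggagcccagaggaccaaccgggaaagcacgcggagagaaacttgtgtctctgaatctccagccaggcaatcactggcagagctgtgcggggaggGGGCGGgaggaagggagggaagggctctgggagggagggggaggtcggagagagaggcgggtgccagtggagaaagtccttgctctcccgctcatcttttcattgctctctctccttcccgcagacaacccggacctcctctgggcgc
SP1 letters stood in 76.5% of the 17 windows of DEG members, in 81.8% of the 55 windows of members tested, in 62.6% of the 12374 windows of all genes tested and in 35.7% of all 32851 windows. In the same order, the AP-1 motif TGANTCA stood in 5.88%, 5.45%, 5.41% and 7.81% of the windows. The STAT motif TTCNNNGAA stood in 0 of the 17 and in 3.64%, 6.75% and 8.30%, and the hypoxia response letters ACGTG in 29.4%, 18.2%, 25.2% and 19.6%. All were searched on both strands, and a match is a description of the letters only.

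Of 71 further genes of the pathway (co-receptors, Flrt and repulsive guidance proteins, and the cytoplasmic proteins that carry the signals), 62 were tested. In aging against normal RGCs, 9 were higher and 26 lower in edgeR, where 23.6% and 23% of all genes passed, with a median log2 fold change of -0.10 against 0.0018 over all genes. Between medium-treated and aging RGCs, 15 were higher and 23 lower, where 27.1% and 26% of all genes passed, with a median of -0.086 against -0.0067. As DEGs, none was higher and 2 were lower, against 1.24% and 4.21% of all genes. The 2 were Nrcam and Flrt1. Nrcam, a cell adhesion molecule that pairs with neuropilins, stood at a log2 fold change of -1.73 (SE 0.469, edgeR adjusted p = 0.00278). Flrt1 is an Unc5-binding membrane protein. It had 12, 6 and 13 counts in normal, 2, 15 and 10 in aging and 0, 2 and 1 in medium-treated wells. The scaled ratio of the last to the aging count was 0.108 (exact 95% interval 0.0210 to 0.352, counting error only, edgeR adjusted p = 0.00453). No medium-treated well of Flrt1 reached the filter's floor. It was tested only through groups in which it is higher, and its falls, here and against normal RGCs, are given as a description of these wells. Against normal RGCs, 12 were higher and 36 lower, where 30.6% and 29.9% of all genes passed, with a median of -0.14 against -0.013. As DEGs, 2 were higher and 5 lower, against 1.47% and 5.24% of all genes. Ablim1, an actin-binding protein linked to netrin signalling, had 8.53, 7.85 and 7.99 CPM in normal, 13.7, 11.8 and 14.1 in aging and 25.2, 23.2 and 25.4 in medium-treated wells. Its wells rose from group to group without overlap (log2 fold change 1.60, SE 0.0917, edgeR adjusted p = 1.33e-14). Mical2, of a family of actin-oxidising enzymes acting below plexins, had 73.8, 62.0 and 67.1 CPM in normal, 37.9, 37.7 and 38.5 in aging and 31.0, 27.7 and 30.5 in medium-treated wells. Its groups did not overlap either, with normal wells highest (log2 fold change -1.19, SE 0.0627, edgeR adjusted p = 2.29e-15). Rgma, a repulsive ligand of neogenin, was lower by 2.22-fold (edgeR adjusted p = 0.0002). Nrcam and Flrt1 were lower here too, and the others were Met, a receptor tyrosine kinase that associates with plexin-B receptors (log2 fold change 1.04), and Flrt3 (-1.01), both named after their values were seen.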

How the data were processed

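RNA was enriched with oligo(dT) beads and sequenced from 9 libraries, 3 per group, grouped by their labels. For each gene the authors deposited an FPKM value, which corrects for length and depth, and an expected count, which is a raw estimate of reads. The genome build of the submitters' processing notes is mm10. The aligner and the counting program with its strand setting were not given in the sources used here. FPKM depends on the transcript lengths assigned, which differed between libraries for some genes (Sema3a, Plxnb1). For that reason, differences between groups are given in TMM-scaled CPM. FPKM is kept for levels between genes and for sums over families or markers. In limma on log2(FPKM + 0.1), the median of all genes was -0.076 for medium-treated against aging RGCs and -0.10 against normal RGCs.

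Expected counts were rounded to whole numbers (between 6.92% and 7.38% of them carried decimals). edgeR 4.0.16 in R 4.3.3 was used with filterByExpr (about 10 counts in 3 libraries), TMM factors, a mean per group over all 9 libraries and the quasi-likelihood F test, with Benjamini-Hochberg adjustment over the 12145 genes tested. All adjusted p-values without another tool's name are from edgeR. The procedure was tested on simulated data with known changes. Of the 48 members tested, 37 were over the filter's floor in every library. Coordinates are those of GENCODE M21 on GRCm38 for all 71 genes.

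The genes named were the DEGs, the 2 highest of each family by mean FPKM, the 5 further genes with the smallest adjusted p per comparison, DEGs of the pathway list (at most 5 per comparison) and the genes not tested, and the other tested members were added to account for all. The members and lists were chosen with earlier results of these data known. Alternatives were DESeq2 1.42.0, limma 3.58.1 on log2(FPKM + 0.1), other filters and scalings, a fold change of 1.5, the 2 groups alone, a replicate block and each library left out.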

Additional observations from a re-analysis of the deposited data

How the results depend on the processing

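No member reversed its direction while called in any of the 2418 comparisons of a single member under an alternative. In 2270 the gene stayed on its side of the threshold, in 120 a call was lost and in 28 one was gained. The number of DEGs depended most on the fold limit, the low-count filter and the scale. For aging against normal RGCs, a fold change of at least 1.5 gave 6 higher in place of 1. The 1 lower DEG became 2 without a low-count filter, 2 with only these 2 groups in the fit, and 0 in limma on log2(FPKM + 0.1). For medium-treated against aging RGCs, the 13 lower DEGs became 7 with a filter of 1 CPM in 3 libraries, 7 among members with a mean of at least 1 CPM, 7 in limma and 21 at 1.5-fold. Against normal RGCs, the 9 lower DEGs became 5 with the filter of 1 CPM, 5 among members with a mean of at least 1 CPM and 16 at 1.5-fold, and the 1 higher DEG, Sema6b, became 0 without TMM factors, 0 in limma and 3 at 1.5-fold. In limma, 2 members in place of 4 passed as higher and 7 pathway genes in place of 12. The calls lost in limma were those of Sema6c, Ntn3, Nrp2, Ephb4, Plxnd1 and Unc5a between aging and normal RGCs, of Sema3b, Sema3g, Plxna1, Plxna4, Plxnc1, Epha7, Efna1, Efna5 and Unc5a between medium-treated and aging RGCs, and of Sema3b, Plxnb1, Plxnb3, Plxnc1 and Ntn4 between medium-treated and normal RGCs. The smaller counts under a stricter filter come from fewer genes tested, and for the others the cause was not tested. Without TMM factors, the median of all genes between medium-treated and normal RGCs moved to -0.11 from -0.013.

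Leaving out 1 library gave, for aging against normal RGCs, 9 to 12 members higher and 11 to 15 lower, 1 to 2 DEGs in each direction, and 6 to 10 pathway genes higher and 22 to 27 lower. The higher DEGs became 2 without aging replicate 1, and the lower ones 2 without normal replicate 3 or any aging replicate. For medium-treated against aging RGCs it gave 2 to 3 higher and 21 to 27 lower, 0 and 10 to 12 DEGs, and 13 to 16 and 21 to 24 pathway genes. Against normal RGCs it gave 3 to 4 higher and 24 to 31 lower, 1 and 6 to 12 DEGs, and 10 to 12 and 33 to 36 pathway genes.

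Same-numbered libraries did not deviate together (correlations of -0.037 to 0.048), so the replicate numbers do not pair the libraries. In a fit with a replicate block, 12 and 13 members passed as higher and lower in aging against normal RGCs, 3 and 26 in medium-treated against aging RGCs, and 4 and 28 against normal RGCs. The block took Epha7 (0.0546 as adjusted p) and Sema3g (0.0538) from the calls between medium-treated and aging RGCs and added Ephb3 (0.0314) to those between aging and normal RGCs. At these depths, members under 10 counts in a library carry the widest errors.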
